A study of Drosophila melanogaster with 20 samples.

Results

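Transcript levels of 6 regulators of the Drosophila melanogaster mesoderm and muscle lineage (zfh1, nau, lmd, twi, htl and mid) were compared in whole embryos that differed in mef2 genotype. The members were taken by name: 7 genes were listed, and every probe set of the array annotated to exactly 1 of them was included. This gave 6 probe sets for 6 genes, 1 per gene, out of 10844 named genes and 13966 probe sets that are not array controls. The gene tin was not analysed here. All 6 members passed the filter on low signal, which left 10474 probe sets to test.

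The mesoderm of the fly embryo is set up by the bHLH factor Twist, and cells of its somatic part become either founder myoblasts, which give each muscle its identity, or fusion-competent myoblasts, which fuse to them. Mef2, a MADS-box transcription factor that acts downstream of Twist, is required for the terminal differentiation of muscle and drives many genes of the contractile apparatus. The members sit at different points of this pathway: twi encodes Twist itself, htl encodes the fibroblast growth factor receptor that guides mesoderm spreading, mid encodes a T-box factor best known from heart and nervous system, and zfh1, nau and lmd act in mesodermal derivatives and myoblasts.

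The 5 genotypes had 4 arrays each: a control, embryos with the hypomorphic alleles 65, 424 and 113 of mef2, and embryos with the null allele, 22.21. The control is the stock in which the 3 hypomorphic alleles were induced, and its labels list dp, cn, a, px and sp. The parental stock of the null allele is not given in the sources used here. Each allele was measured in a single genotype, so an effect of the mef2 allele and other differences of its stock cannot be told apart. Mutant embryos were recognised by lacking a CyO balancer that carries a Gal4 under twi control and a GFP reporter. Every group comprised pools of 150 embryos from collections of 30 min, aged for 6.5 h at 25 °C, staged individually by the germ band and homogenised at mid stage 13. The labels rank Mef2 activity as control, 65, 424, 113 and null, and give no amounts. Whether the replicate arrays stand for separate embryo collections is not said, so each p-value reflects the variation among the 4 arrays, part of which may be technical.

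Levels are MAS5 signals in arbitrary units, and their trimmed mean was the same on each array. Median signals per array lay between 33.6 and 37.3. All 4 control arrays were processed on module 4 of the fluidics station, where only 2 other arrays, of the null, were run, and the 4 hybridisation days each held the control and 3 or 4 of the other genotypes. The summed signal of 5 muscle markers (Mlc1, Mlc2, TpnC73F, up and Tm2) followed the labelled order, from 860 to 1154 in the control through 608 to 721 in 65, 295 to 420 in 424 and 105 to 151 in 113 to 56.5 to 86.8 in the null. No probe set was named for Mef2, so the targeted gene was not checked here. Changes are given on the log2(signal + 16) scale, on which genes with low signal change less than their ratios do, with the standard error (SE) from limma, and a gene was called where the Benjamini-Hochberg adjusted p over all 10474 probe sets was under 0.05.

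The 6 regulators did not move as a group. A moderated F test over the 5 genotypes called 5 of the 6, with twi as the exception, while 25.3% of all probe sets were called. Against the control, 5 of 6 were called in the null, 3 lower (zfh1, nau and htl) and 2 higher (lmd and mid), where 17.6% of all probe sets were called, 9.51% lower and 8.06% higher. In 113, 3 of 6 were called, zfh1 and nau lower and lmd higher (6.67% of all probe sets, 3.52% lower and 3.15% higher). In 424 and in 65, zfh1 was called lower and lmd higher, 2 of 6 each. In 424, 8.83% of all probe sets were called, 4.74% lower and 4.10% higher, and in 65 5.61%, 2.79% lower and 2.83% higher. A linear trend over the activity rank called 5 of 6, and 1679 of the 10474 probe sets. A call of the trend does not require levels in that order. Only the means of nau ran in it, and those in 65 and 424 were nearly equal, at signals of 42.6 and 42.3. In each of the 4 comparisons with the control the called members were also the ones whose arrays did not overlap those of the control. This rests on the same arrays as the calls, and the share of all probe sets without overlap was not computed. Over all tested probe sets the median log2 change was -0.01 in the null and between 0.00 and 0.01 in the 3 hypomorphs. The 4 comparisons share the control arrays.

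**Figure D1:**
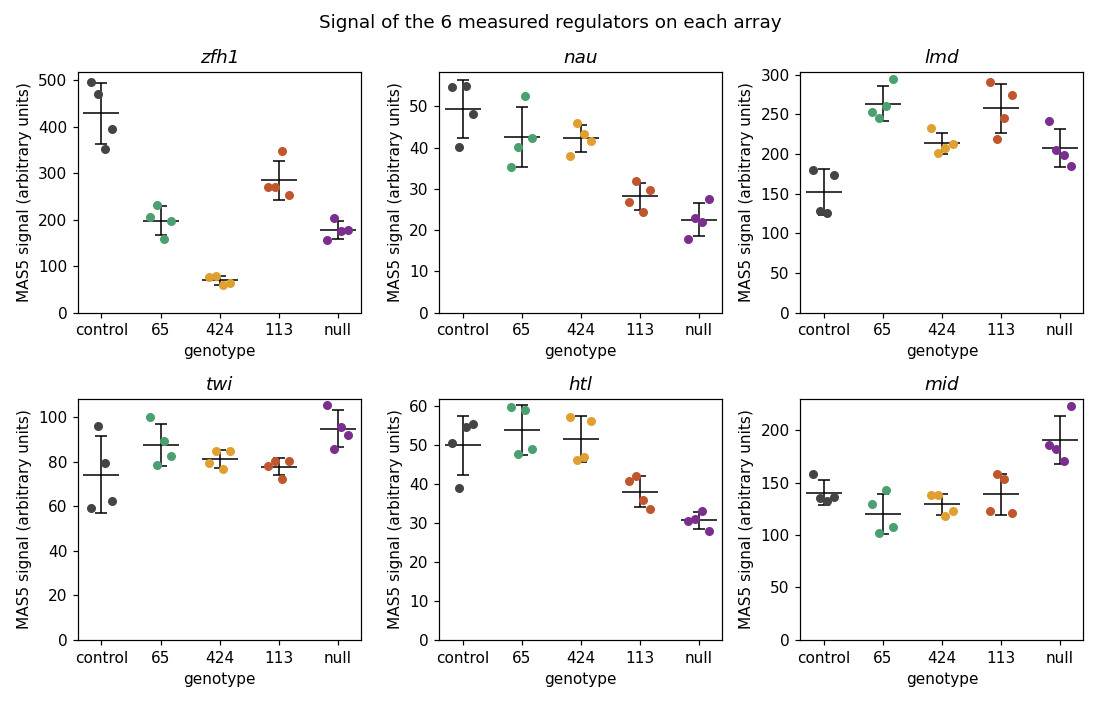
Signal of each regulator on every array (vertical axes, MAS5 signal in arbitrary units, starting at 0) by genotype in the labelled order of Mef2 activity; points are arrays, horizontal bars are means and whiskers are SD (n = 4). zfh1 is lowest in 424, nau and htl are lowest in the null, lmd is lowest in the control, mid is highest in the null, and the groups of twi overlap the control.

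zfh1 encodes a zinc-finger and homeodomain transcription factor of mesodermal derivatives, which in adult muscle precursors holds back differentiation. Its probe set (141676_at; gene on chromosome arm 3R) read 496, 469, 352 and 396 in the 4 control arrays, and 206, 232, 157.5 and 197 in 65. It read 75.7, 79.9, 59.5 and 64.3 in 424, 269.8, 271, 347 and 252 in 113, and 156, 204, 175 and 179 in the null. Every array of every mutant lay below every control array, though the highest array of 113, at 347, was close to the lowest control array, at 352. The 4 arrays of 424 lay below all 16 others.

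The mean zfh1 signal was 429 ± 66.2 in the control and 69.8 ± 9.55 in 424 (SD, n = 4 each), or 16.3% of the control. The log2 change in 424 was -2.37 ± 0.13 (SE; limma adjusted p = 3.88e-12), the 9th lowest of 10474 probe sets. The changes were -1.05 ± 0.13 in 65 (adjusted p = 4.51e-06), -0.56 ± 0.13 in 113 (adjusted p = 0.00579) and -1.19 ± 0.13 in the null (adjusted p = 1.95e-07). The levels of zfh1 therefore ran, from low to high, as 424, null, 65, 113 and control, which is not the order of Mef2 activity. The linear trend over that order was nevertheless 0.19 ± 0.03 per rank (adjusted p = 3.41e-05) and was called in all 32 alternatives run for it.

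Adjacent alleles in the activity series differed in zfh1 at each step and in both directions. From 65 to 424 zfh1 changed by -1.31 ± 0.13 (adjusted p = 1.44e-07), where 4.03% of probe sets were called. From 424 to 113 it rose by 1.81 ± 0.13 (adjusted p = 6.70e-10), the 8th largest rise among all probe sets, of which 6.36% were called. From 113 to the null it changed by -0.63 ± 0.13 (adjusted p = 0.00121), where 13.3% were called. The null lay above 424 by 1.18 ± 0.13 (adjusted p = 2.46e-07; 16.2% of all probe sets called). In the order of levels, the null and 65 did not differ beyond their spread, at -0.13 with a 95% interval of -0.39 to 0.13 (adjusted p = 0.569). The next step up, from 65 to 113, at 0.49, had a limma adjusted p of 0.0484 (1.46% of all probe sets called). It was called in 11 of 33 alternative settings, over which the value ran from 0.40 to 0.57.

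The fall of zfh1 in 424 was -2.48, -2.34, -2.29 and -2.36 within the 4 hybridisation days. In the null it was -1.57, -1.14, -0.95 and -1.08 within those days, and -1.28 within module 4, where 2 null arrays and all control arrays were run. In 113 the within-day values were -0.84, -0.76, -0.02 and -0.62, so on the third day 113 and the control hardly differed. With the fluidics module as a block, zfh1 in 113 was at -0.63 and was not called (adjusted p = 0.269), at a standard error 1.77 times as large, whereas 424 (-2.34), the null (-1.28) and 65 (-1.15) were called. For the null this block gives the value within module 4 by construction, so it is no second check. In whole embryos, fewer cells that express a gene and less RNA per cell cannot be told apart, here and for the other members.

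zfh1 is also expressed in fat body precursors, hemocytes, heart, gonadal mesoderm and motor neurons, so marker sums of these cells are given beside it. The 3 fat body markers summed to 2429 to 2591 in the control and to less in all 4 mutants. They summed to 2073 to 2422 in 65, 1908 to 2307 in 424, 2077 to 2362 in 113 and 1616 to 2068 in the null. None of the 3 was called in 65 or 113. Of these only apolpp was called lower in 424 and the null, with mean signals of 2168, 1792 and 1559 in the control, 424 and the null, while SPARC was at 338, 352 and 345 and Fbp1 at 27.4, 34.4 and 26.2, neither called. The 7 measured of 8 hemocyte markers summed to 685 to 726 in the control and 686 to 863 in 424, and the 3 motor neuron markers to 444 to 564 and 423 to 508. In 65, 113 and the null the hemocyte sums were 708 to 920, 856 to 1020 and 751 to 850. The 4 heart markers summed to 159.7 to 184 in the control and 88.1 to 146 in 424, where tup alone was called lower, and Hand, H15 and Sur had higher means than in the control (34.3 against 26.8, 59.0 against 44.5 and 15.1 against 6.84) and were not called. In 65, 113 and the null the heart sums were 180 to 238, 143 to 222 and 129 to 210. The 2 gonadal mesoderm markers summed to 132 to 177 in the control and 133 to 198 in 424. Nearly all of this was eya, with means of 146 and 152. The other, tj, was at 5.57 and 4.72 and did not pass the filter on low signal. The 4 epidermal markers were at 431 to 460 in 424 and at 630 to 930 in the other 4 genotypes, with Nrx-IV and sha called lower in 424 and grh and f not called. Like tj, the hemocyte markers Hml and NimC1 did not pass the filter on low signal. The part of other cell types in the zfh1 result was not tested.

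**Figure D2:**
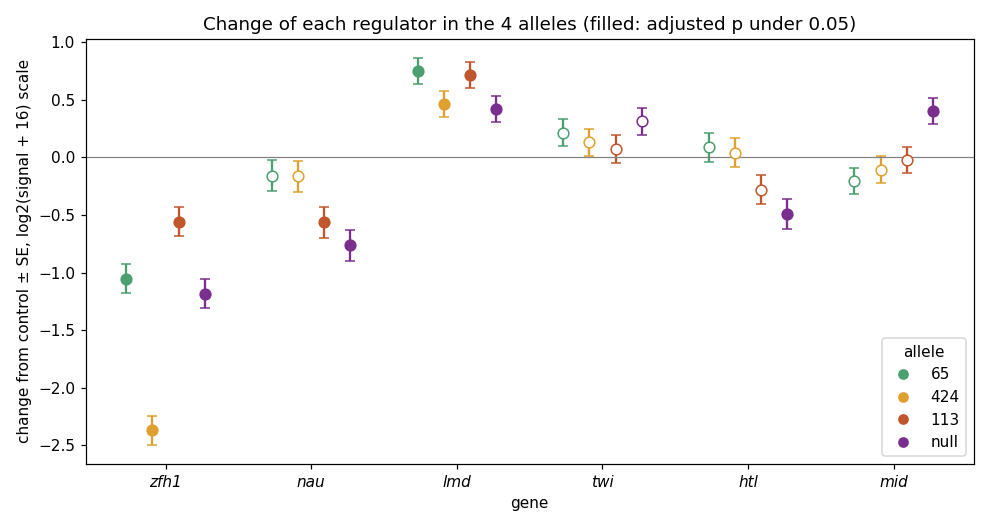
Change of each regulator from the control in alleles 65, 424, 113 and null (vertical axis, difference of mean log2(signal + 16) ± SE; filled points have an adjusted p under 0.05). zfh1 is down in all 4 alleles and furthest down in 424 at -2.37, lmd is up in all 4, nau is down in 113 and the null, and htl is called only in the null.

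nau encodes the fly homologue of the vertebrate myogenic factor MyoD, a bHLH protein found in a subset of founder myoblasts and muscles. Its probe set (143280_at; gene on 3R) read 54.6, 40.1, 54.9 and 48.2 in the control, 35.3, 40.3, 52.6 and 42.4 in 65, and 38.1, 46.1, 43.2 and 41.7 in 424. It read 26.8, 31.9, 24.5 and 29.7 in 113 and 17.8, 23.0, 21.9 and 27.5 in the null. The control, 65 and 424 overlapped one another, and all arrays of 113 and the null lay below all arrays of those 3 genotypes.

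Mean nau signals were 49.5 ± 6.99 (control), 28.2 ± 3.24 (113) and 22.6 ± 4.01 (null; SD, n = 4 each). The log2 change was -0.56 ± 0.14 in 113 (limma adjusted p = 0.0102) and -0.76 ± 0.14 in the null (adjusted p = 0.000218). In 65 and 424 it was -0.16 ± 0.14 each, with 95% intervals of -0.44 to 0.12, and neither was called. The changes in 65, 424 and 113 amounted to 21.0%, 21.4% and 73.8% of the change in the null on this scale. The trend over activity rank was 0.19 ± 0.03 per rank (adjusted p = 6.13e-05).

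No step between neighbours in the order of nau levels was called by itself. The step from 424 to 113 was -0.40 ± 0.14 (adjusted p = 0.0856) with no overlap between the groups, and that from 113 to the null was -0.20 ± 0.14 (adjusted p = 0.391). Over 2 or more ranks, the null lay below 65 and 424 by -0.60 ± 0.14 each (adjusted p = 0.00291 and 0.00281; 14.8% and 16.2% of all probe sets called). Within the 4 days nau differed from the control by -1.06, -0.52, -0.91 and -0.56 in the null and by -0.72, -0.23, -0.81 and -0.49 in 113. With the module as a block the null was at -0.87 (adjusted p = 0.00157) and 113 at -0.82, the latter not called (adjusted p = 0.172), and the null was no longer called against 65 (-0.44) or 424 (-0.39). The nau signal is low, so the size depends on the pseudocount: the null was at -1.10 with 1 and -0.39 with 64, and called with both.

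htl encodes Heartless, the fibroblast growth factor receptor of the mesoderm, which is needed for the spreading of the early mesoderm and for heart and dorsal muscle progenitors, and is also present in glia. Its probe set (154602_at; gene on 3R) read 50.6, 38.9, 54.6 and 55.3 in the control, 59.6, 47.6, 58.8 and 49.0 in 65, and 57.0, 46.0, 46.7 and 56.0 in 424. It read 40.7, 41.9, 35.8 and 33.6 in 113 and 30.4, 31.0, 33.1 and 28.0 in the null. All null arrays lay below all arrays of the other 4 genotypes, and those of 113 overlapped the control only at its lowest array, 38.9.

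The mean htl signal was 49.8 ± 7.56 in the control and 30.6 ± 2.09 in the null (SD, n = 4 each), a log2 change of -0.49 ± 0.13 (limma adjusted p = 0.00715). In 113 it was at -0.28 ± 0.13 with a 95% interval of -0.54 to -0.02, and was not called over all probe sets (adjusted p = 0.235). In 65 and 424 it was at 0.09 and 0.04, with intervals of -0.17 to 0.35 and -0.22 to 0.30. The null lay below 65 by -0.58 ± 0.13 (adjusted p = 0.00222) and below 424 by -0.53 ± 0.13 (adjusted p = 0.00434). The neighbours in the order of levels (null, 113, control, 424, 65) were not separated by any single step.

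The difference of htl between null and control was -0.52, -0.23, -0.52 and -0.70 within the 4 days and -0.46 within module 4. With the module as a block it is the same -0.46 by construction, because all control arrays lie on module 4, so this is no second check. Its limma adjusted p was 0.0738, and the calls of the null against 65 and 424 were lost as well. The trend over activity rank was 0.14 ± 0.03 per rank (adjusted p = 0.00136). The 6 glial markers, which mark another site of htl expression, summed to 1558 to 1709 in the control and 1589 to 1769 in the null, but 3 of them were called in the null, in both directions. The mean signals of repo and nrv2 were 54.4 and 96.2 in the control and 117 and 174 in the null, and that of wrapper was 214 in the control and 161 in the null. The 5 muscle markers named above were all called lower in 424, 113 and the null, and 3 of 5 in 65, and their part in the nau and htl results was not tested.

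lmd encodes Lame duck, a Gli-family zinc-finger factor that specifies fusion-competent myoblasts and that activates Mef2 in them. Its probe set (141284_at; gene on 3R) read 179.6, 128, 126 and 174 in the control, 253, 245, 260.4 and 295 in 65, and 233, 202, 208 and 213 in 424. It read 291, 219, 246 and 274 in 113 and 242, 205, 199 and 185 in the null. Every array of every mutant lay above every control array, with replicates 2 and 3 of the control the lowest.

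Control embryos had a mean lmd signal of 152 ± 28.8, and the mutants had means of 263 ± 22.0 in 65, 214 ± 13.4 in 424, 257 ± 31.5 in 113 and 208 ± 24.4 in the null (SD, n = 4 each). The log2 change was 0.75 ± 0.11 in 65 (limma adjusted p = 0.000108), 0.47 ± 0.11 in 424 (adjusted p = 0.00914), 0.71 ± 0.11 in 113 (adjusted p = 0.000157) and 0.42 ± 0.11 in the null (adjusted p = 0.00993). Among the 4 mutants the limma fit called no pair. The widest gap between them, from 65 to the null, was -0.32 ± 0.11 (adjusted p = 0.0561), and it was called in 7 of 33 alternative settings. The trend over activity rank, -0.08 ± 0.03 per rank (adjusted p = 0.0294), was lost in 5 of 32 alternatives, among them those without control replicate 2, control replicate 3 or null replicate 1, at -0.07 in each. The control had the lowest mean, but the trend was not a stepwise rise with falling activity. Among the mutants the mean was lowest in the null and highest in 65.

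Within the 4 days lmd differed from the control by 0.65, 0.71, 0.88 and 0.61 in 113, and by 0.40, 0.61, 0.60 and 0.08 in the null. In 424 the values were 0.35, 0.59, 0.66 and 0.27. The null lay below 113 on each of the 4 days, by -0.25, -0.09, -0.28 and -0.53. 65 was run on 2 of the days, at 0.44 and 1.05. With the module as a block the changes were 0.96, 0.72, 0.91 and 0.50 in 65, 424, 113 and the null, and that in 424 was not called (adjusted p = 0.216).

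mid encodes Midline, a T-box factor of the Tbx20 family that acts in heart specification and in the nervous system and epidermis. Its probe set (145823_at; gene on 2L) read 158, 136, 132 and 136 in the control, 129, 102, 143 and 107 in 65, and 138, 138, 119 and 123 in 424. It read 123, 158, 154 and 121 in 113 and 186, 182, 171 and 223 in the null. All 4 null arrays lay above all 16 others, and the remaining 4 genotypes overlapped.

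The mean mid signal was 140.4 ± 11.7 in the control and 191 ± 22.8 in the null (SD, n = 4 each), a log2 change of 0.40 ± 0.11 (limma adjusted p = 0.0154). The null also lay above 113 by 0.42 (adjusted p = 0.0134), above 424 by 0.50 (adjusted p = 0.00270) and above 65 by 0.60 (adjusted p = 0.000489). In 65, 424 and 113 mid was at -0.21, -0.11 and -0.02 against the control, with 95% intervals of -0.44 to 0.03, -0.34 to 0.13 and -0.26 to 0.21. Without null replicate 4, the highest array, the null was at 0.33 against the control (adjusted p = 0.0663) and at 0.35 against 113 (adjusted p = 0.0587). The call against 113 was also lost without 113 replicate 1 (0.37) or replicate 4 (0.36). With the module as a block the change in the null was 0.32 and was not called (adjusted p = 0.154). The trend over activity rank was -0.10 ± 0.03 per rank (adjusted p = 0.00842) and was lost with that block (adjusted p = 0.0688). The levels of mid ran, from low to high, as 65, 424, 113, control and null, which is not the order of Mef2 activity. Within the 4 days the change in the null was 0.22, 0.38, 0.34 and 0.65. The neighbouring T-box paralogue on 2L, H15, had a signal of 44.5 in the control and 69.3 in the null and was not called in any allele, at 0.29 to 0.43.

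twi encodes the bHLH factor Twist, which specifies the mesoderm early and by this stage is retained in adult muscle precursors. Its probe set (143396_at; gene on 2R) read 58.9, 96.0, 79.3 and 62.3 in the control, 99.97, 78.3, 89.4 and 82.5 in 65, and 79.2, 84.8, 76.6 and 84.6 in 424. It read 78.0, 80.2, 72.1 and 80.3 in 113 and 106, 85.6, 95.4 and 92.0 in the null. The control was the most variable group, with an SD of 17.1 on a mean of 74.1, and it overlapped each of the others.

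The log2 change of twi was 0.31 ± 0.12 in the null, with a 95% interval of 0.07 to 0.56, and was not called (limma adjusted p = 0.0749). It was called after median centring of the arrays (0.37, adjusted p = 0.0301), after quantile normalisation (0.36, adjusted p = 0.0379), and without control replicate 2, the highest control array (0.42, adjusted p = 0.0148). In 65, 424 and 113 twi was at 0.21, 0.13 and 0.07, with intervals of -0.03 to 0.46, -0.12 to 0.38 and -0.17 to 0.32. Within the 4 days the null differed from the control by 0.70, -0.14, 0.23 and 0.46. The genotype means of twi spanned 0.31 on the log2 scale, below the median span of 0.39 over all tested probe sets.

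**Figure D3:**
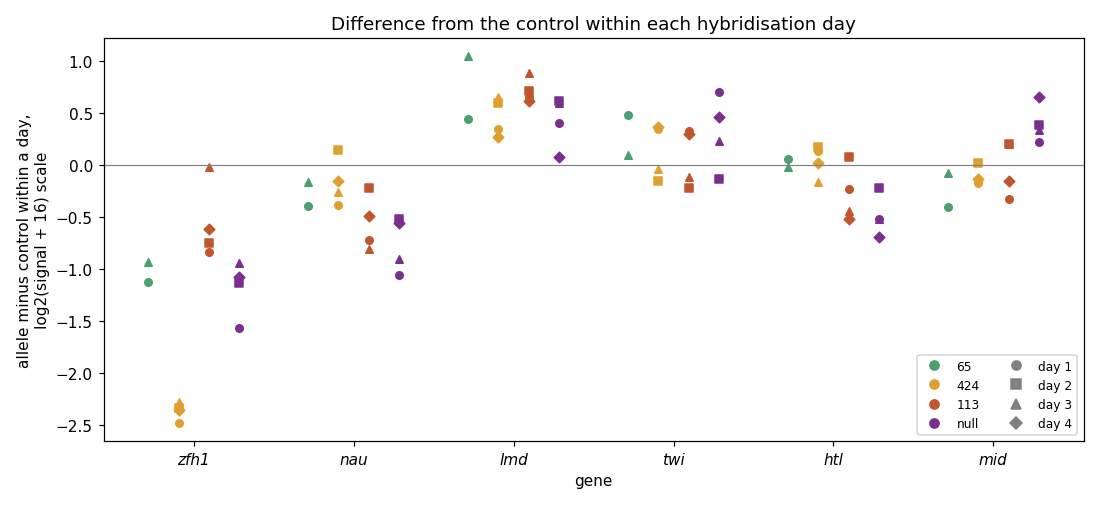
Difference between an allele and the control within each of the 4 hybridisation days (vertical axis, log2(signal + 16) scale; marker shapes are days, colours are alleles; each point compares 1 allele array, or the mean of 2 for 65, with 1 control array). zfh1 in 424 lies between -2.48 and -2.29 on all days, whereas the twi differences lie on both sides of 0.

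The spans of the genotype means were 2.37 for zfh1, 0.76 for nau, 0.75 for lmd, 0.60 for mid and 0.58 for htl. The span of zfh1 was larger than that of 99.6% of the tested probe sets, and those of nau, lmd, mid and htl were larger than 89.4%, 88.8%, 79.3% and 76.8%. The SD within a genotype was 0.13 to 0.19 for the 6 members, under the median of 0.22 over all probe sets.

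For each of the 5 members called by the F test, the 3 named probe sets with the most similar profile were taken by Pearson r of log2 values over the 20 arrays, out of 9362 compared. The arrays form genotype groups, so r describes likeness only and has no p. A lowest or highest genotype shared with the member follows largely from this choice and is no separate result. The profile of zfh1 was most like those of CG2641 (r = 0.93), Nrx-IV, a septate junction gene (r = 0.92), and htt, the huntingtin homologue (r = 0.92). Nrx-IV is also 1 of the epidermal markers above. All 3 had their lowest mean in 424, at 21.0 for CG2641, 239 for Nrx-IV and 3.15 for htt, against 129, 579.7 and 62.7 in the control. The profile of nau was most like those of CG5886 (r = 0.90), Smyd4-3, of the SET and MYND domain family (r = 0.89), and the tropomyosin gene Tm2 (r = 0.89).

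The profile of htl was most like that of Treh, the trehalase gene (r = 0.93), with mean signals of 127 (control), 81.7 (113) and 54.5 (null). PAN2, of the deadenylase complex, and CG42748 followed at r = 0.88 and 0.87. The profile of lmd was most like those of Pi3K68D, a phosphoinositide 3-kinase gene (r = 0.87), CG13622 (r = 0.82) and the glypican gene dlp (r = 0.82), all lowest in the control. The profile of mid was most like those of insb (r = 0.86), Gp150, which encodes a leucine-rich repeat membrane protein (r = 0.81), and CG8788 (r = 0.81), all highest in the null, with Gp150 at 289 in the control and 542 in the null.

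**Figure D4:**
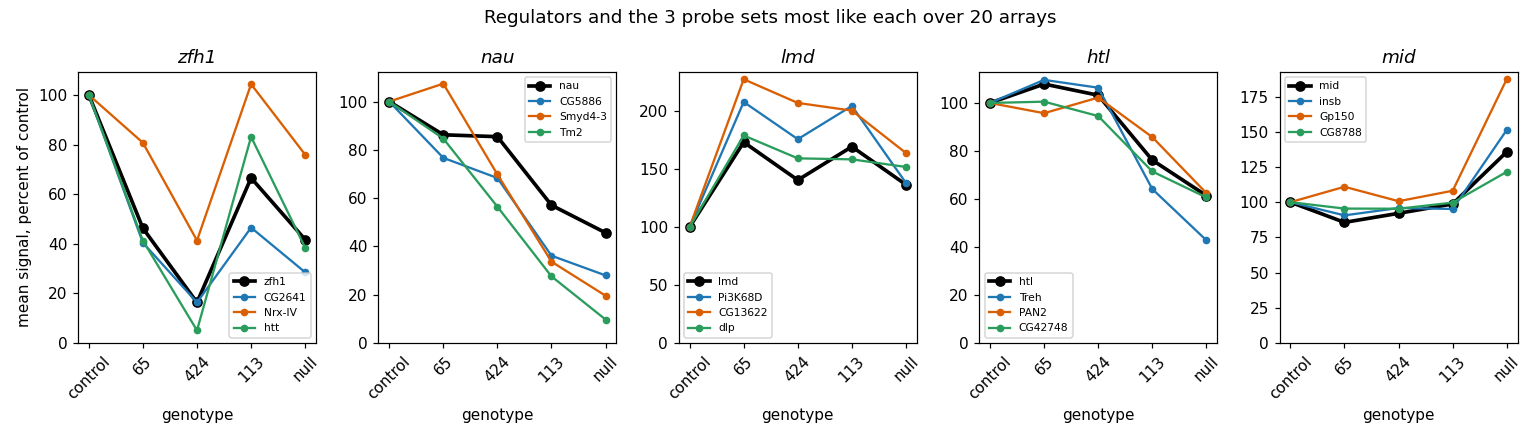
Mean signal by genotype as a percent of the control (vertical axis, from 0) for each regulator called by the F test (black) and the 3 probe sets most like it over the 20 arrays. The zfh1 group dips in 424, the nau and htl groups have their lowest means in 113 and the null, the lmd group is raised in all mutants and the mid group is raised in the null.

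Other genes around the members were counted in lists, which were drawn up with earlier results of these data known. Their counts stand beside the shares of all probe sets called against the control, 17.6% in the null, 6.67% in 113, 8.83% in 424 and 5.61% in 65. In the FGF pathway of htl, 9 of 15 listed genes were tested. The limma fit called 1 lower in the null and 0 in 113, 424 and 65, where 0, 0 and 1 had an unadjusted p under 0.05. The gene called in the null was sgl, which encodes an enzyme needed for heparan sulfate, at -0.33. The ligand genes pyr and ths were at 0.04 and 0.02 in the null, the Grb2 adaptor gene drk at 0.26, and the feedback inhibitor gene sty at 0.03, and none of these was called. The median of the list was 0.03 in the null, beside -0.01 over all probe sets.

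Among early mesoderm regulators 6 of 12 were tested, and 1 was called in 424, slp2, a forkhead gene of mesoderm subdivision, at -0.42. The limma fit called 0 of 6 in the null, 113 and 65, where 0, 1 and 1 had an unadjusted p under 0.05 and the medians were -0.05, -0.12 and -0.06. The zinc-finger repressor gene sna was at -0.15 in the null, and da, which encodes the general bHLH partner of Twist and Nautilus, at -0.14.

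In the dorsal mesoderm and heart list 16 of 18 genes were tested. In the null bap, a homeobox gene of visceral mesoderm, was lower at -0.64 and eve, which marks pericardial and dorsal muscle cells, was higher at 0.63. In 424 the lower genes were tup, a LIM-homeodomain factor of heart and muscle, and Doc1, a T-box gene of dorsal mesoderm, at -0.48. tup had a signal of 94.6 ± 9.26 in the control and 8.02 ± 7.89 in 424 (SD, n = 4 each), a log2 change of -2.26, whose size depends on the pseudocount at this low signal. In 65, 113 and the null tup was at -0.02, -0.14 and -0.13 and was not called, and the lowest mean of both tup and zfh1 was in 424. In 65 the lower genes were Doc1 at -0.42 and ush, which encodes a GATA cofactor, at -0.52. In 113 the limma fit called 0 of 16, and 2 had an unadjusted p under 0.05. Hand, a bHLH gene of the heart, had a control signal of 26.8 and a null signal of 17.1 and was not called at -0.39.

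Of 13 tested fusion genes, which act in founder and fusion-competent myoblasts, 2 were lower and 1 higher in the null, where 17.6% of all probe sets were called. The membrane protein gene sing was at -2.53 and rols, a founder scaffold gene, at -0.51, while Vrp1, the verprolin gene, rose by 0.72. In 113 sing was at -0.76 and Vrp1 at 0.70, both called. In 65 and 424 the limma fit called 0 of 13, and 0 and 1 had an unadjusted p under 0.05. The gene sns, which encodes the receptor of fusion-competent myoblasts, was at -0.06 and 0.03 there.

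Of 13 tested founder identity genes, caup, an Iroquois homeobox gene, was higher in all 4 alleles, at 0.72, 0.63, 0.47 and 0.68 in 65, 424, 113 and the null. Dr, the muscle segment homeobox gene, was lower in 424, 113 and the null at -0.39, -0.57 and -0.50. Ptx1 was higher in 65 and 424, at 0.72 and 0.63, and vg, the partner of Scalloped in muscle, was lower in the null at -0.45. slou, the S59 homeobox gene, varied among the genotypes by the F test (adjusted p = 0.00387) but was called in no allele against the control.

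Beside these regulators, genes of the contractile apparatus known to be driven by Mef2 were counted, and 10 of 12 sarcomere genes were tested. In the null 9 were lower and 1, the tropomodulin gene tmod, was higher, with a median log2 change of -2.35, and in 113, 424 and 65 the medians were -1.65, -0.87 and -0.39. Mlc2, the regulatory light chain gene of muscle myosin, went through -0.58, -1.41, -2.85 and -3.09 in 65, 424, 113 and the null. The list medians ran in the labelled order of activity. The list includes all 5 muscle markers summed above, so this order is no separate result.

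**Figure D5:**
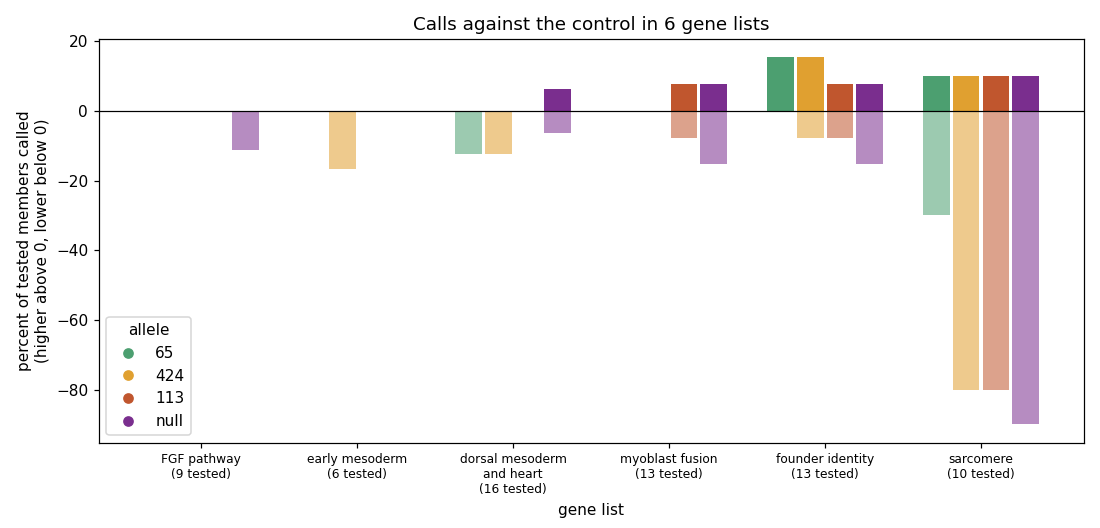
Percent of tested members of 6 gene lists that were called against the control (vertical axis; higher above 0, lower below 0) in alleles 65, 424, 113 and null. In the sarcomere list 9 of 10 were lower in the null. In each of the other lists, of 6 to 16 tested genes, at most 3 were called per allele. Of all probe sets 5.61%, 8.83%, 6.67% and 17.6% were called in 65, 424, 113 and the null.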

How the data were processed

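Whole-embryo RNA of 5 genotypes was hybridised to Affymetrix arrays, 4 per genotype and 20 in all. The authors deposited 1 MAS5 signal intensity per probe set and array, per the submitters' processing notes, and the version of MAS5 is not given in the sources used here. On every array the mean after trimming 2% at each end was 100.02, as found from the values. Hybridisation day and fluidics module were read from the run records, per the file headers. The number of arrays limits the precision.

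Of 13966 probe sets, 12443 have 1 gene symbol, 327 several and 1196 none, and 12394 of the former matched the gene table. The members, gene lists and tests were chosen with earlier results of these data known. The 25% of probe sets with the lowest mean (under a signal of 8.14) were left out, 16 was added, and log2 values were fitted with limma 3.58.1 in R 4.3.3, with 1 mean per genotype, 15 residual degrees of freedom and a trended prior, and Benjamini-Hochberg adjustment over 10474 probe sets. The fit was tested on simulated data. From each list at most 4 genes were named, those with the smallest F-test p. The genes pyr, ths, bap, eve, ush, sns, vg, tmod and H15 were named after their values were seen. Sequences and genome positions were not used here. Alternatives were another pseudocount, filter, scaling or prior, blocks for replicate number, day and module, fits of only the genotypes compared, and leaving out each array. Python 3.11.15, numpy 2.4.6, pandas 2.3.3 and matplotlib 3.10.9 were used for tables and plots.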

Additional observations from a re-analysis of the deposited data

Results flagged for a closer look

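The mid signal of control replicate 1, at 157.689, stood apart from the other 3 control arrays, at 132 to 136. Its gap to the nearest of them was 0.845 of the range of the group, above Dixon's 95% critical value for 4 samples. It was the only such array among the 30 combinations of member and genotype tested, and chance flags about 1 in 20 groups. Without it, mid in the null lay further above the control, at 0.45 against 0.40 on the log2 scale.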

How the results depend on the processing

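Over 33 alternative settings, 2294 of 2364 values of the members kept their direction and side of the threshold, 41 lost a call, 12 gained one and 17 changed sign, none of the last called in either setting. Of the 41 lost calls, 22 were of zfh1 in 113 against 65, and 12, of which 1 was that same comparison, came with the fluidics module as a block. Under that block 3 members were called in the null, 1 in 113 and 1 in 424 against the control, 1 for null against 65, 2 for null against 424, 3 in the trend and 0 for 113 against 65. All control arrays lie on module 4, so that fit compares them with 113, 424 and 65 through other genotypes, at standard errors 1.77 to 2.08 times as large. The mid trend (adjusted p = 0.0688) and the lmd trend (0.0618) were lost there too. The single call for 113 against 65 also went to 0 with a pseudocount of 1, no filter, a prior without trend, the day as a block or only the 2 genotypes fitted, while 3 members had an unadjusted p under 0.05 as reported. Leaving out 1 array gave 0 to 1 calls there and 1 to 2 for null against 113, where mid was lost without replicate 1 or 4 of 113 or replicate 4 of the null. A prior without trend gave 2 calls for 113 against 424, adding nau (-0.40, adjusted p = 0.0355).

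The values that changed sign were near 0 as reported. For nau in 424 against 65 they were 0.00778 after median centring, 0.0239 after quantile normalisation and -0.0648 to 0.0750 with an array left out. For twi they were 0.0411 in 113 against 424 with the module as a block and -0.00919 to 0.184 in 113 against the control with an array left out. For lmd they were 0.0112 with the day as a block and -0.0929 to 0.0346 with an array left out in 113 against 65, and 0.00378 after median centring and -0.114 to 0.00674 with an array left out in null against 424. For mid in 113 against the control they ran from -0.0809 to 0.0346, and for htl in 424 against the control from -0.0462 to 0.0791, each with an array left out.

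With the replicate number as a block no call was lost, and lmd was added for null against 113 (-0.29, adjusted p = 0.0379) and for null against 65 (-0.32, adjusted p = 0.0177), giving 3 and 4 calls. Arrays of the same number correlated at -0.03 to 0.21 in their deviations from the genotype means, and 15 of 20 correlated best with an array of their own number. The labels do not say what a number stands for, so it is taken only as a number.

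Over all probe sets, the module block lowered the calls from 1840 to 1226 in the null, 699 to 94 in 113, 925 to 88 in 424 and 588 to 67 in 65 against the control. It lowered them from 422 to 236 for 424 against 65, 666 to 309 for 113 against 424, 1396 to 626 for null against 113, 153 to 74 for 113 against 65, 1554 to 752 for null against 65 and 1702 to 551 for null against 424. The trend went from 1679 to 1076 and the F test from 2652 to 1669. For 113 against 65, fitting only both genotypes gave 89 calls, and leaving out 65 replicate 1, 113 replicate 1 or 113 replicate 3 gave 98, 98 and 101. Median centring turned the split of calls in the null from 844 higher and 996 lower to 1153 and 808. It turned null against 113 from 631 and 765 to 843 and 642, null against 65 from 650 and 904 to 920 and 734, and the trend from 919 and 760 to 766 and 1024. The run record of 65 replicate 4 notes an aborted fluidics run, and without it both calls in 65 against the control stood.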
